A study of Mus musculus with 8 samples.

Results

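The 37 RNAs described here are those encoded by the mouse mitochondrial genome, taken as every entry of the count table whose symbol starts with mt-. They are 37 of 48440 entries and comprise 13 mRNAs, 2 rRNAs and 22 tRNAs. RNA came from cardiomyocytes purified from hearts of C57BL6/J pups at postnatal day 2. The 4 litters contributed a brother and a sister apiece, which made 4 male and 4 female libraries, and the labels name no treatment and no altered allele in either sex. Libraries are named by sex and litter, for example male 4 for the male pup of litter 4.

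Mitochondrial DNA is a small circle without introns, and both of its strands are read as long transcripts that run through many genes. From the heavy-strand promoter comes the transcript with both rRNAs, most tRNAs and nearly all mRNAs, and from the light-strand promoter comes the one with mt-Nd6 and the remaining tRNAs. In most places a tRNA stands between neighbouring mRNAs or rRNAs, and cutting at both ends of the tRNAs frees the RNAs between them. The proteins made from these mRNAs belong to the respiratory chain and the ATP synthase, which heart muscle holds in large amounts. On the GRCm38 build with the GENCODE M21 annotation, 28 genes lie on the plus strand of chrM (12 mRNAs, 2 rRNAs and 14 tRNAs) and 9 on the minus strand (mt-Nd6 and 8 tRNAs).

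The close packing matters for what a 100-base read can show, because the tRNA genes are 59 to 75 bases long. The sequences below, from GENCODE M21 transcripts, are printed 5′ to 3′ along the plus strand to show 3 arrangements: a tRNA closed in by neighbours on its own strand, a pair on opposite strands, and a tRNA that follows directly on an mRNA of its strand. In the first 2, at chrM:1005-1113 and chrM:2656-2770, capitals mark the valine tRNA mt-Tv and the leucine tRNA mt-Tl1, with the ends of the flanking genes in lower case. In the third, at chrM:3706-3842, capitals mark the 3 bases shared by the isoleucine tRNA mt-Ti on the plus strand and the glutamine tRNA mt-Tq on the minus strand. In the fourth, at chrM:4930-5016, capitals mark the tryptophan tRNA mt-Tw after the end of mt-Nd2. In the fifth, at chrM:15289-15422, the threonine tRNA mt-Tt is in lower case, and capitals mark the complement of the proline tRNA mt-Tp on the minus strand.
mt-Rnr1/mt-Tv/mt-Rnr2: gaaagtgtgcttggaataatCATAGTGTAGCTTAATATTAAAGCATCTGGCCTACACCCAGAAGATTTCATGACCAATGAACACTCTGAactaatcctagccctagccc
mt-Rnr2/mt-Tl1/mt-Nd1: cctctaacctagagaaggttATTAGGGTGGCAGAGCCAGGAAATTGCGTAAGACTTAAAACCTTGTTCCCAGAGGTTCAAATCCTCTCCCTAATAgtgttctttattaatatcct
mt-Ti/mt-Tq: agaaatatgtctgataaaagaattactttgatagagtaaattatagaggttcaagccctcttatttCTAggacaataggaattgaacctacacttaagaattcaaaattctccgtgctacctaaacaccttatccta
mt-Nd2/mt-Tw: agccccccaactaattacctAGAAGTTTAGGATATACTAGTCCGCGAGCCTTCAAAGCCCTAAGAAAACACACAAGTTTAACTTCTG
mt-Tt/mt-Tp: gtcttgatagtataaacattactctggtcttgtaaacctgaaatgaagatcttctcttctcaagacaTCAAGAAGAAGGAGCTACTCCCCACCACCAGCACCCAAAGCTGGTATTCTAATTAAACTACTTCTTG

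Library totals ran from 14226342 to 24910243 counts, and mitochondrial genes held between 13.4% (female 1) and 18.5% (male 4) of them. All 10 cardiomyocyte markers had counts in every library, summing to between 71723 and 90005 CPM, which are counts per 1000000 counts of the library. The 6 mural markers summed to between 450 and 610 CPM, the 6 erythroid markers to between 99.3 and 541 CPM, the 8 fibroblast markers to between 33.1 and 246 CPM, and the 8 endothelial markers to at most 151 CPM. Counts of libraries of 1 sex differed by more than sampling noise in every pair, with a chi-square per degree of freedom of 10.3 to 49.2, so none was a repeat deposit.

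Of the 37 genes, 25 had at least 1 count in at least 1 library, and the other 12 were all tRNAs. Cytochrome c oxidase subunit I, mt-Co1, took 37.8% ± 1.37 (SD, n = 8) of mitochondrial counts, and cytochrome b, mt-Cytb, took 19.5% ± 0.402 (SD, n = 8). The rRNAs together took between 2.13% (female 3) and 2.67% (male 4). The tRNAs together took between 0.0124% (female 4) and 0.0203% (female 3), or 427 to 641 counts per library. Genes on the minus strand took between 0.0262% (male 4) and 0.0617% (female 2).

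**Figure D1:**
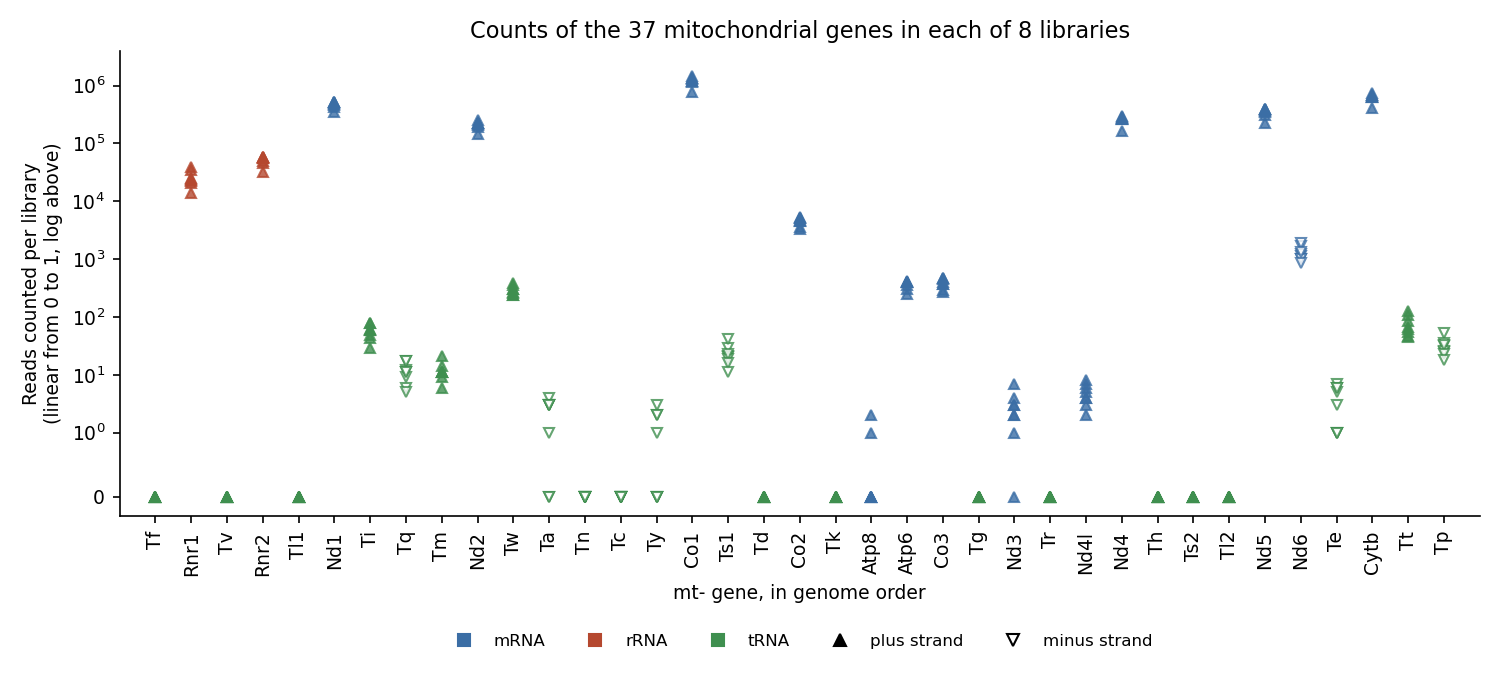
Reads counted in each of the 8 libraries (y axis, linear from 0 to 1 and logarithmic above) for the 37 mitochondrial genes in genome order (x axis, prefix mt- left out). Each mark is 1 library, colour gives the kind of RNA, filled upward triangles are plus-strand genes and open downward triangles minus-strand genes; 12 tRNAs sit at 0 in every library, and mt-Co1 is highest in each.

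Among the rRNAs, mt-Rnr1 (chrM:70-1024), the RNA of the small mitochondrial ribosomal subunit, had 20373 counts in male 1, 23596 in female 1, 24782 in male 2, 24198 in female 2, 22255 in male 3, 13631 in female 3, 35051 in male 4 and 38423 in female 4. The RNA of the large subunit, mt-Rnr2 (chrM:1094-2675), had 55555 in male 1, 58542 in female 1, 49051 in male 2, 46164 in female 2, 56711 in male 3, 31818 in female 3, 57688 in male 4 and 58117 in female 4. For mt-Rnr1 both pups of litter 4 stood above all others, whereas for mt-Rnr2 female 1 had more counts than either of them. Female 3, the library with the lowest total, was lowest for both. Per kilobase, mt-Rnr1 had 1219 ± 374 CPM and mt-Rnr2 had 1501 ± 200 CPM (SD, n = 8), below the 8740 to 36619 CPM per kilobase of mt-Nd1, mt-Nd2, mt-Co1, mt-Nd4, mt-Nd5 and mt-Cytb. The labels give poly(A) RNA as the molecule yet name a total RNA kit, so the level of an rRNA or tRNA beside an mRNA cannot be told apart from what library preparation kept of each.

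Whether a tRNA had any counts went with the room that the gene map leaves for a read. A position was counted as room when a whole 100-base read placed there touches the tRNA and no other gene on the same strand. By that reckoning 9 tRNA genes have no room, and all 9 had 0 counts in all 8 libraries: mt-Tf, mt-Tv, mt-Tl1, mt-Tk, mt-Tg, mt-Tr, mt-Th, mt-Ts2 and mt-Tl2, which carry phenylalanine, valine, leucine, lysine, glycine, arginine, histidine, serine and leucine. Of the 13 with room, 10 had counts. The 3 with room but no counts were the minus-strand mt-Tn (asparagine) with 6 positions and mt-Tc (cysteine) with 1 position, and the plus-strand mt-Td (aspartate) with 41. A count of 0 allows up to 3 counts per library, or 0.12 to 0.211 CPM, by counting error alone. The number of positions did not order the counts, since mt-Tw had 2382 counts over the 8 libraries on 65 positions and mt-Tq had 88 on 170. Every tRNA gene is shorter than 100 bases, so a whole read placed there also covers bases outside the tRNA. Counts of tRNA genes, here and below, are therefore no measure of the cut tRNA alone.

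Reckoned with neighbours on either strand, the same map leaves no room for 19 tRNAs, and 9 of these had counts. The pair of mt-Ti and mt-Tq printed above is such a case: each has room on its own strand, 38 and 170 positions, and none once genes on the other strand are considered, which for mt-Tq means mt-Ti on one side and mt-Tm on the other. The table listed 459 counts for mt-Ti and 88 for mt-Tq over the 8 libraries. Whether counting used the strand is not given in the sources used here, nor is how a read touching more than 1 gene was handled, and the part of either in these counts was not tested.

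**Figure D2:**
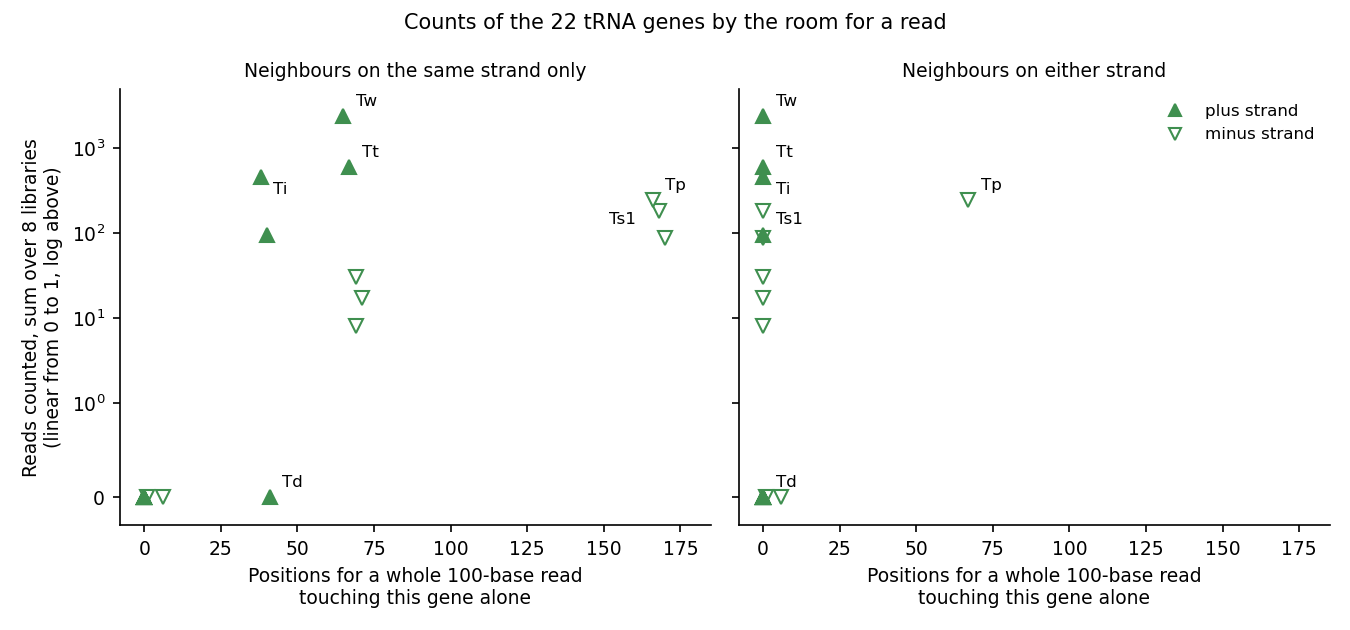
Reads counted over all 8 libraries (y axis, linear from 0 to 1 and logarithmic above) for the 22 tRNA genes, against the number of positions for a whole 100-base read touching that gene alone (x axis), reckoned with neighbours on the same strand (left) or on either strand (right). On the left, 9 tRNAs with 0 positions all lie at 0 counts; on the right, 9 of 19 tRNAs with 0 positions have counts.

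On the plus strand 4 tRNAs had counts, mt-Tw, mt-Tt, mt-Ti and the methionine tRNA mt-Tm. Counts of mt-Tw were 306 in male 1, 360 in female 1, 240 in male 2, 307 in female 2, 388 in male 3, 243 in female 3, 275 in male 4 and 263 in female 4. Counts of mt-Tt were 67 in male 1, 129 in female 1, 47 in male 2, 55 in female 2, 106 in male 3, 84 in female 3, 45 in male 4 and 63 in female 4. The first was the most abundant tRNA entry in every library, and the second was above 80 in 3 libraries only, female 1 and both pups of litter 3. The other two had 29 to 78 counts (mt-Ti) and 6 to 21 counts (mt-Tm) per library. Of these 4 genes, mt-Ti, mt-Tw and mt-Tt each follow directly on an mRNA of their strand, as the printed end of mt-Nd2 and start of mt-Tw shows, while mt-Tm follows on the minus-strand mt-Tq.

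On the minus strand 6 tRNAs had counts, and the proline tRNA mt-Tp, the first gene behind the light-strand promoter, had the most. Its counts were 52 in male 1, 32 in female 1, 36 in male 2, 25 in female 2, 26 in male 3, 33 in female 3, 23 in male 4 and 18 in female 4. The serine tRNA mt-Ts1 had 21, 29, 20, 42, 19, 23, 16 and 11 counts in the same order of libraries. Per library mt-Tq had 5 to 17, the glutamate tRNA mt-Te 1 to 7, the alanine tRNA mt-Ta 0 to 4 and the tyrosine tRNA mt-Ty 0 to 3. Minus-strand genes held between 9.52% (female 4) and 17.1% (male 1) of tRNA counts.

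The sequences of 4 minus-strand tRNAs are printed in the sense of their own RNA, which is how reads from the light-strand transcript would run. They lie at chrM:15356-15422, chrM:14071-14139, chrM:6870-6938 and chrM:3772-3842, all on the minus strand, and carry no capitals. Along the light-strand transcript they come in this order, with mt-Nd6 between mt-Te and mt-Ts1.
mt-Tp: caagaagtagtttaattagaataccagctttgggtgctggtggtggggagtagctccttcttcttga
mt-Te: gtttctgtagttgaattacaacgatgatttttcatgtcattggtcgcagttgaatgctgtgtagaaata
mt-Ts1: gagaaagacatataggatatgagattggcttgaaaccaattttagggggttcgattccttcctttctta
mt-Tq: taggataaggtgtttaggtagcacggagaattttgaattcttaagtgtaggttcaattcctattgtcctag

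To set genes of unequal room side by side, counts were divided by the number of read positions on the gene's own strand and averaged over the 8 libraries. Along the light-strand transcript this gave 0.184 ± 0.0629 for mt-Tp, 0.0543 ± 0.0369 for mt-Te, 2.44 ± 0.687 for mt-Nd6 and 0.135 ± 0.0559 for mt-Ts1 (SD, n = 8). Farther along, it was 0.0145 for mt-Ty, 0 for mt-Tc and mt-Tn, 0.0299 for mt-Ta and 0.0647 for mt-Tq. The tRNAs thus showed no fall with distance alone, since mt-Te near the promoter lay below mt-Ts1. The only mRNA of this strand, mt-Nd6, a subunit of complex I, exceeded each tRNA of its strand in counts per position.

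On the plus strand the same quantity was 1.51 ± 0.444 for mt-Ti, 0.294 ± 0.109 for mt-Tm, 4.58 ± 0.827 for mt-Tw and 1.11 ± 0.446 for mt-Tt (SD, n = 8). It was 29.5 ± 9.27 for mt-Rnr1 and 34.9 ± 6.23 for mt-Rnr2. Relative to the mRNA ahead of it, mt-Tw reached 2.04% ± 0.305 of the counts per position of mt-Nd2. Likewise mt-Tt reached 0.210% ± 0.101 of those of mt-Cytb, and mt-Ti 0.271% ± 0.0728 of those of mt-Nd1 (SD, n = 8). These and the following pairs of neighbours were chosen after the counts were seen.

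Between the strands, mt-Nd6 reached 1.28% ± 0.314 (SD, n = 8) of the counts per position of mt-Nd5, the complex I subunit whose end overlaps its own by 14 bases, with a range of 0.773% to 1.69% over libraries. The minus-strand mt-Ts1, which shares 3 bases with mt-Co1, reached 0.0187% ± 0.00932 of the counts per position of that mRNA, and mt-Te reached 0.0102% ± 0.00679 of those of mt-Cytb (SD, n = 8). Between tRNAs that face each other, mt-Tp reached 18.6% ± 8.66 of mt-Tt, mt-Tq 4.33% ± 1.58 of mt-Ti and mt-Ta 0.617% ± 0.435 of mt-Tw (SD, n = 8). A small share of plus-strand reads placed on the opposite strand would move the minus-strand values most beside abundant mRNAs, and its part was not tested. The 2 lines below show the overlaps along the plus strand, with the shared bases in capitals, at chrM:6850-6938 and chrM:13532-13585.
mt-Co1/mt-Ts1: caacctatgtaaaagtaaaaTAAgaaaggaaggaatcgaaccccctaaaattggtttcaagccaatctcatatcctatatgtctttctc
mt-Nd5/mt-Nd6: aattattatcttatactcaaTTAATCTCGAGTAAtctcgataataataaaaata

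The 13 mRNAs fell into separate ranges of level. Per kilobase, mt-Co1 had 36619 ± 4609 CPM, mt-Cytb 25533 ± 2731, mt-Nd1 22911 ± 1981, mt-Nd2 9376 ± 678, mt-Nd5 8857 ± 1215 and mt-Nd4 8740 ± 888 (SD, n = 8). The last 3, all complex I subunits, lay within 1 SD of each other. Far below were mt-Co2, a core subunit of cytochrome c oxidase, with 310 ± 46.7 CPM per kilobase, and mt-Nd6 with 112 ± 28.9. Lower still were mt-Atp6, a subunit of the ATP synthase, with 24.8 ± 3.67, and mt-Co3, another oxidase subunit, with 23.1 ± 4.68.

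At the bottom, mt-Nd4l had 2 to 8 counts, mt-Nd3 had 0 to 7 and mt-Atp8, the other ATP synthase subunit encoded here, had 0 to 2 counts per library. These 6 low plus-strand mRNAs, mt-Co2, mt-Atp8, mt-Atp6, mt-Co3, mt-Nd3 and mt-Nd4l, all lie within mitochondrial positions 6394 to 11042. That stretch of 4649 bases is spanned, with short gaps, by 7 pseudogenes on chromosome 1, nuclear copies of mitochondrial DNA at chr1:24611535-24616197, and holds 11 mitochondrial genes whole, mt-Td among them. In windows of 100 bases, the share that also occurs in annotated nuclear transcripts was 99.5% for mt-Co2 and mt-Atp6, 99.9% for mt-Co3, 98.5% for mt-Nd4l and 97.6% for mt-Nd3. It was 60.8% for mt-Nd4, 30.8% for mt-Co1, 3.2% for mt-Nd2 and 0% for mt-Nd1, mt-Nd5, mt-Nd6, mt-Cytb and both rRNAs. For mt-Atp8 it was also 0%, although the gene lies inside the stretch: annotated pseudogenes there cover only the 43 bases of mt-Atp8 that it shares with mt-Atp6. Nuclear sequence outside annotated transcripts was not searched.

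When all counts of a gene were divided by only those of its positions that are not shared with a nuclear transcript, the value was 654 ± 107 for mt-Co2 over its 7 such positions, against 555 ± 72.8 for mt-Nd1 and 555 ± 87.2 for mt-Cytb, which share none (SD, n = 8). For mt-Nd4 the value was 521 ± 81.7 over 503 positions and for mt-Co1 1053 ± 175 over 1168. It was 183 ± 29.8 for mt-Atp6 over 2 positions and 391 ± 78.0 for mt-Co3 over 1, so both rest on almost no sequence. The 2 shortest mRNAs with shared windows stayed low, at 4.88 ± 2.03 for mt-Nd4l over 1 position and 0.393 ± 0.303 for mt-Nd3 over 7. This quantity supposes that reads on shared windows were not counted, which is not given in the sources used here and was not tested. All 684 windows of the pseudogene Gm28437 are shared with mt-Co3, and it had 1025 to 1881 counts per library. Reads that overhang an annotated pseudogene or differ from it by a base were not considered. The values per unshared position are therefore no estimate of level.

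The pseudogene entries themselves had counts. Gm28437, the copy of mt-Co3, held 76.5% ± 5.38 of the counts of both (SD, n = 8), and Gm28661, the copy of mt-Co2, held 10.9% ± 1.71. For the copies of mt-Co1 the shares were 0.325% ± 0.0685 (Gm29216) and 0.0657% ± 0.0101 (Gm13340, on chromosome 2), and for Gm28439, the copy of mt-Nd4, 0.153% ± 0.0450. The levels of mt-Co2, mt-Atp6, mt-Co3, mt-Nd3, mt-Nd4l and in part mt-Nd4 and mt-Co1 are therefore uncertain, since reads from a gene and its near-identical copy cannot be told apart.

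**Figure D3:**
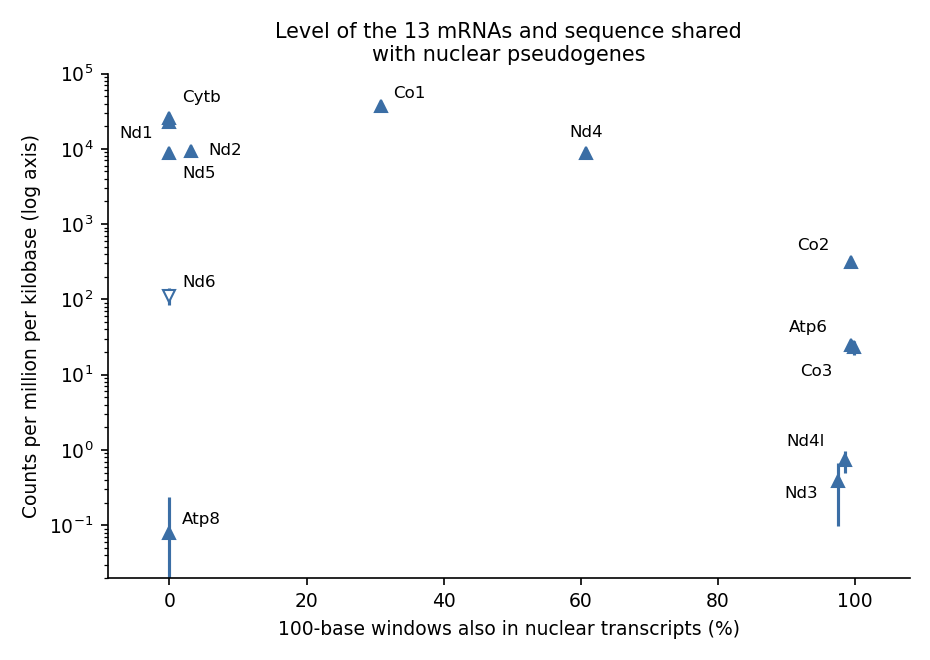
Level of the 13 mitochondrial mRNAs in CPM per kilobase (y axis, logarithmic; mean and SD over 8 libraries, the bar of Atp8 running off the axis) against the percent of their 100-base windows also found in annotated nuclear transcripts (x axis). The 5 mRNAs above 97% lie between 0.383 and 310, the 6 highest mRNAs lie at 60.8% or less, Nd6 (open, minus strand) is at 112, and Atp8 is low at 0%.

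The first comparison asked whether male and female pups differed. Of the 37 genes, 19 had enough counts to be tested: both rRNAs, 10 mRNAs and 7 tRNAs (mt-Ti, mt-Tq, mt-Tm, mt-Tw, mt-Ts1, mt-Tt and mt-Tp). None of the 19 passed an adjusted p of 0.05 in edgeR's quasi-likelihood test, and 0 of 19 had an unadjusted p under 0.05. DESeq2 also called 0. Over all genes tested 6 of 13771 passed, which is 0.0436%. Differences, as log2 of male over female, ran from -0.58 (mt-Ts1, SE 0.38) to 0.49 (mt-Tq, SE 0.42), with a median of 0.05, and 13 of 19 were above 0. Scaled to the mitochondrial total, 8 of 19 were above 0, with a median of -0.04 and again 0 called. In bulk samples of this kind, fewer cells and less RNA per cell cannot be told apart.

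The rRNAs differed little by sex: mt-Rnr1 had 1177 ± 465 CPM in males and 1151 ± 284 in females, and mt-Rnr2 had 2468 ± 437 and 2282 ± 137 (SD, n = 4 each). For mt-Rnr1 the log2 difference was 0.05 (SE 0.27) and for mt-Rnr2 0.13 (SE 0.14), each male higher in 2 of 4 litters. With litter as a block it was -0.0 (SE 0.07) for mt-Rnr1 and 0.11 (SE 0.07) for mt-Rnr2 (adjusted p = 0.997 and 0.586, edgeR). The tRNA with the most even sign was mt-Tt, at 2.94 ± 1.21 CPM in males and 4.08 ± 1.79 in females (SD, n = 4 each), below the sister's value in 4 of 4 males. With litter as a block its log2 difference was -0.46 (SE 0.18), and the adjusted p was 0.373 in edgeR. In that blocked fit 0 of 19 were called, 1 had an unadjusted p under 0.05, and 29 of 13771 genes passed, or 0.211%.

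Shares of the mitochondrial counts gave the same picture for sex. The 7 measures were the mitochondrial share of all counts, the rRNA, tRNA and minus-strand shares of mitochondrial counts, the minus-strand share of tRNA counts, and the log2 ratios of mt-Rnr2 to mt-Rnr1 and of mt-Nd6 to the other mRNAs. Exact permutation tests over the 8 libraries, two-sided, gave p between 0.343 and 0.914, or 0.767 to 0.914 after adjustment over the 7. The tRNA share was 0.0149% ± 0.00279 in males and 0.0172% ± 0.00364 in females, and the share of minus-strand genes 0.0379% ± 0.0101 and 0.0454% ± 0.0129 (SD, n = 4 each). Both were lower in the male in 3 of 4 litters, the tRNA share in litters 1, 2 and 3.

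The second comparison asked whether litters differed, with sex in the model. In edgeR's quasi-likelihood test 6 of the 19 were called, or 31.6%, close to the 32.1% of all 13771 genes (4427), so the count is read as no result about mitochondrial RNAs. By DESeq2 it was 7 of 19, or 36.8%, against 23.6% of all genes, and without litter 3 in edgeR 5 of 19, or 26.3%, against 13.7%. The 6 were mt-Rnr1, mt-Rnr2, mt-Co1, mt-Nd4, mt-Cytb and mt-Tt. The range from the lowest to the highest litter had a median of 0.41 on the log2 scale over the 19, and 0.37 over all genes.

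The gene with the lowest p was mt-Rnr1. Its level was 818 CPM in male 1, 973 in female 1, 1043 in male 2, 1106 in female 2, 988 in male 3, 958 in female 3, 1860 in male 4 and 1565 in female 4. The pups of litter 4 did not overlap with any other, and the range between litters was 1.00 on the log2 scale (adjusted p = 9.98e-05, edgeR). Without litter 4 the range was 0.24 and the adjusted p 0.0633, the only one of 15 alternatives that ended the call, and the lowest was 4.16e-58, with no filter on low counts. Against the mitochondrial total instead of the whole library, mt-Rnr1 had 5775, 7247, 7344, 7610, 6734, 6401, 10075 and 10297 CPM of the mitochondrial total in the order male 1, female 1 and so on, with litter 4 again apart.

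The other rRNA moved less. For mt-Rnr2 the litter means were 2322 ± 130, 2087 ± 32.3, 2377 ± 198 and 2714 ± 490 CPM (SD, n = 2 each) for litters 1 to 4, a range of 0.45 on the log2 scale (adjusted p = 0.0277, edgeR). Female 4, at 2368 CPM, lay below female 1 (2414) and male 3 (2517), so the litters overlapped. The call was lost without male 4 (adjusted p = 0.113), without male 2 (0.0765), without litter 4 (0.110), with library totals alone as the scale (0.0607) and when scaled to the mitochondrial total (0.646). The range fell to 0.25 without male 4, 0.18 without litter 4 and 0.22 against the mitochondrial total. Over all 15 alternatives the lowest adjusted p was 6.76e-10, with no filter on low counts.

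The balance between the rRNAs does not depend on how libraries are scaled. The log2 ratio of mt-Rnr2 to mt-Rnr1 per base was 0.719 in male 1 and 0.583 in female 1, 0.257 in male 2 and 0.204 in female 2, 0.621 in male 3 and 0.495 in female 3, and -0.00936 in male 4 and -0.131 in female 4. Littermates lay close to each other, and the 2 of litter 4 were the lowest of the 8. Litter accounted for 99.7% of the variance left after centring each sex, the highest of the 7 measures. The exact permutation p of that share was 0.0417, the smallest that 4 litters allow, and 0.146 after adjustment over the 7 measures. For the mitochondrial share of all counts litter accounted for 71.0% (exact p = 0.0417, adjusted 0.146), and for the tRNA share 84.7% (exact p = 0.125). It accounted for 67.2% in the rRNA share, 60.2% in the minus-strand share of tRNA counts, 40.1% in the ratio of mt-Nd6 to the other mRNAs and 39.8% in the minus-strand share (exact p between 0.333 and 0.583). Without litter 4 these last values were 16.1%, 34.6%, 6.8% and 8.17%, in the same order. Without litter 3 they were 77.4%, 81.7%, 37.2% and 38.1%. The male had the higher ratio of mt-Rnr2 to mt-Rnr1 in 4 of 4 litters, by 0.109 on average (exact paired p = 0.125, the smallest possible).

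**Figure D4:**
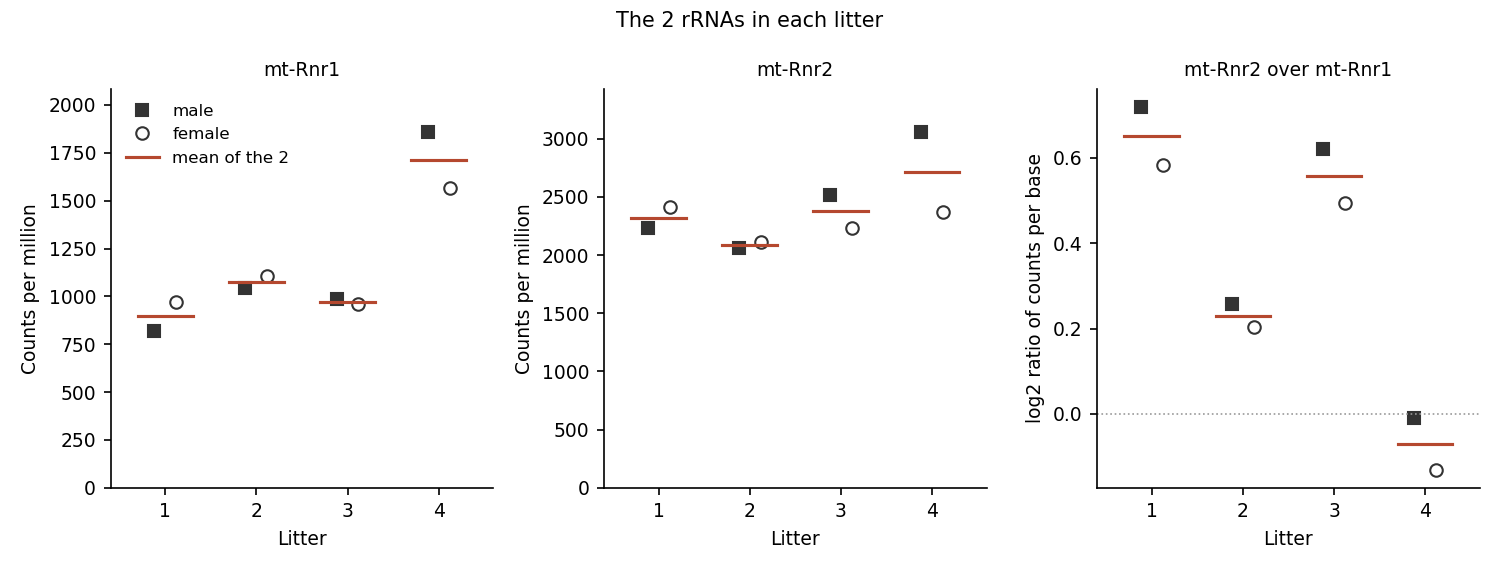
CPM of mt-Rnr1 (left) and mt-Rnr2 (middle) and the log2 ratio of mt-Rnr2 to mt-Rnr1 per base (right) by litter; squares are males, circles females, and lines the mean of the 2 littermates. In mt-Rnr1 both pups of litter 4 (1860 and 1565 CPM) lie above the rest, and the ratio is near 0 in litter 4 and 0.495 to 0.719 in litters 1 and 3.

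Among tRNAs mt-Tt was called between litters. It had 2.69 CPM in male 1, 5.32 in female 1, 1.98 in male 2, 2.51 in female 2, 4.70 in male 3, 5.90 in female 3, 2.39 in male 4 and 2.57 in female 4. Both pups of litter 3 were high and those of litters 2 and 4 low, while the pups of litter 1 stood apart from each other. The range was 1.23 on the log2 scale (adjusted p = 0.00915, edgeR), and without litter 3 the range was 0.82 and the adjusted p 0.0981, the only one of 15 alternatives that ended the call, and the lowest was 7.41e-07. These values rest on 45 to 129 counts per library.

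The mRNAs called between litters were mt-Co1, mt-Nd4 and mt-Cytb, with ranges of 0.41, 0.35 and 0.38 on the log2 scale (adjusted p = 0.0112, 0.0394 and 0.0141, edgeR). Their means were highest in litter 4, at 65879 ± 9939 CPM for mt-Co1, 13494 ± 1600 for mt-Nd4 and 33512 ± 3670 for mt-Cytb (SD, n = 2). Male 4 was the highest library for all 3, at 72908, 14626 and 36107 CPM, and without it the ranges were 0.26, 0.19 and 0.24 (adjusted p = 0.0822, 0.291 and 0.113, edgeR). Without litter 4 they were 0.06, 0.10 and 0.06 (adjusted p = 0.638, 0.48 and 0.669, edgeR). The calls of mt-Co1 and mt-Cytb were also lost without male 1 (0.0693 and 0.0686), and that of mt-Cytb without female 1 (0.0655). In all, mt-Co1 kept its call in 11, mt-Cytb in 10 and mt-Nd4 in 7 of 15 alternatives. Over the 15 the adjusted p reached 0.955 for mt-Co1, 0.966 for mt-Nd4 and 0.988 for mt-Cytb, each when scaled to the mitochondrial total. These genes make up 37.8%, 8.06% and 19.5% of that total on average, so the scale takes out part of their own change. The mitochondrial share of all counts, of which they are likewise a large part, was 18.5% in male 4 and 15.2% in female 4. It moved with the CPM of these 3 genes.

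Scaled to the mitochondrial total, 5 of 19 were called, or 26.3%, against 41.6% of all 13771 genes. These shares are not like for like, since the members are part of that total and nuclear genes are not. On this scale the median range was 0.51 over all genes and 0.49 over the 19, against 0.37 and 0.41 without it. The 5 called were mt-Rnr1 (range 0.65, adjusted p = 0.00024, edgeR), mt-Tt (1.28, 3.05e-06), mt-Tw (0.63, 0.00619), mt-Co2 (0.49, 0.0262) and mt-Nd6 (0.61, 0.00374). In that fit, and in the one with no filter, edgeR gave infinite prior degrees of freedom, so each gene was tested against the spread of all genes and its own littermates had no weight. Litter held 92.7% of the sex-centred variance of the log2 share for mt-Rnr1 and 92.0% for mt-Tt, but 78.0% for mt-Tw, 72.4% for mt-Co2 and 40.5% for mt-Nd6. For mt-Nd6 littermates were as far apart as litters, with 480 CPM of the mitochondrial total in male 1 and 311 in female 1, and 333 in male 2 and 590 in female 2. Its pups of litter 4, at 245 and 356, overlapped with those of litters 1 and 2.

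**Figure D5:**
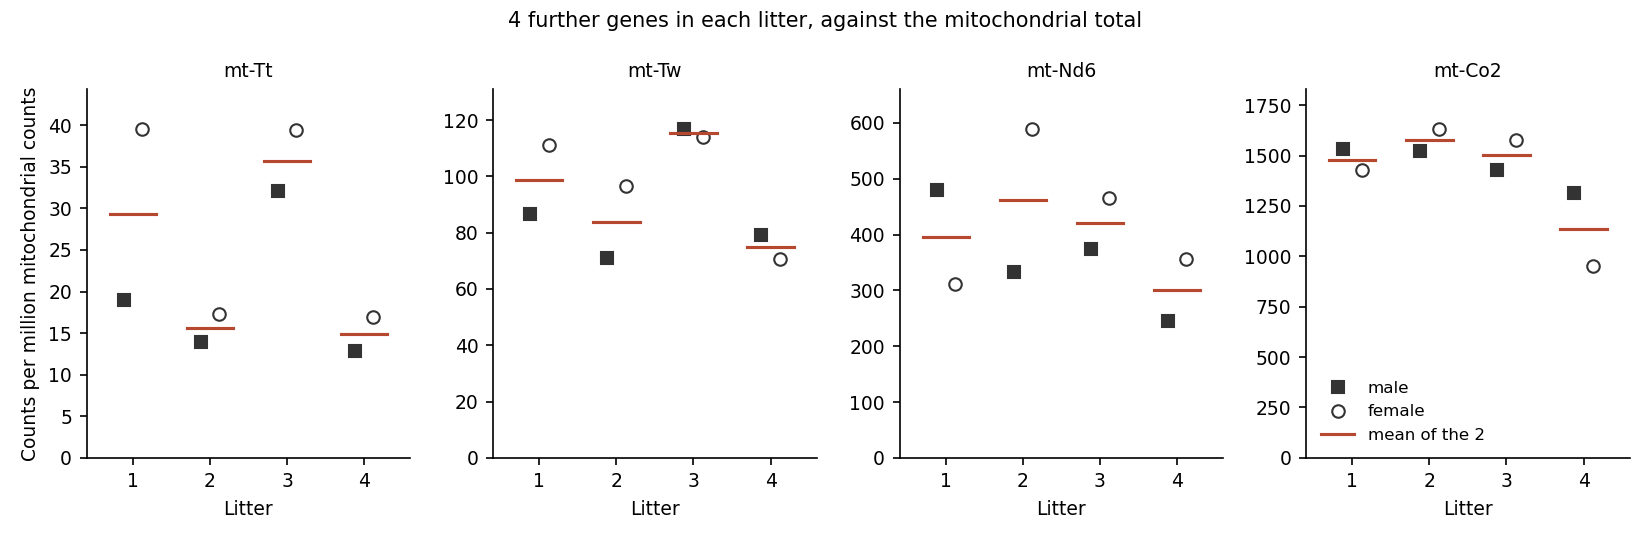
CPM of the mitochondrial total (y axes, from 0) by litter for mt-Tt, mt-Tw, mt-Nd6 and mt-Co2; squares are males, circles females, and lines the mean of the 2 littermates. For mt-Tt the litters 2 and 4 lie between 12.9 and 17.3 and litter 3 at 32.1 and 39.4, while for mt-Nd6 the littermates of litter 2 lie at 333 and 590.

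Markers of other cells also differed between litters. In litter 3, where mt-Tt was highest, the 10 cardiomyocyte markers summed to 71723 and 74811 CPM, the lowest of all pups. The 8 fibroblast markers were also lowest there, at 53.0 (male) and 33.1 CPM (female) against 105 to 246 elsewhere, and the 6 epicardial markers highest, at 23.6 and 23.7 CPM against 13.3 to 19.0. The 6 erythroid markers were at 541 CPM in male 3 and at 188 in female 3, against 99.3 to 246 elsewhere. In litter 4, where mt-Rnr1 was highest, cardiomyocyte markers summed to 77382 (male) and 90005 CPM (female), and the 6 mural markers to 450 and 495 CPM, against 529 to 610 elsewhere. Both pups of litter 4 were also lowest for the 6 macrophage markers, at 3.61 and 4.73 CPM against 5.28 to 9.35, and for the epicardial markers, at 13.3 and 13.8 CPM. The 8 endothelial markers were highest in litter 2, at 82.4 and 151 CPM, against at most 62.0 elsewhere. No list of other cells had a marker at 0 in all libraries. The part of these cells in the litter differences was not tested.

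Nuclear genes that make, cut, modify or use mitochondrial RNA were described from 7 lists of 102 genes in all, every one of them tested. By sex, 0 of 102 were called in edgeR and 2 had an unadjusted p under 0.05, which 2.22% of all genes had. With litter as a block 0 were called and 8 had such a p, which 11.6% of all genes had. DESeq2, run after these results were seen, called 0. Between litters 15 of 102 passed, or 14.7%, against the 32.1% of all genes. Of the 11 transcription genes 2 were called, Tfam and Mrpl12, or 18.2%. Polrmt, the mitochondrial RNA polymerase, had 39.7 ± 4.46 CPM, Tfb2m, which opens the promoter, 14.1 ± 1.59, and Tefm, the elongation factor, 15.7 ± 0.819 (SD, n = 8), and these were not called between litters, with ranges of 0.16, 0.30 and 0.22 on the log2 scale.

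Tfam, which packs the DNA and starts transcription, was called (range 0.41, adjusted p = 0.0205, edgeR; 11 of 15 alternatives), with litter means of 51.7, 45.9, 39.7 and 44.2 CPM. Among the enzymes that cut tRNA ends, Elac2 had 32.8 ± 2.53 CPM and Trmt10c 24.7 ± 1.15 (SD, n = 8), and neither was called. Prorp, listed under its older symbol 1110008L16Rik, had 10.3 ± 1.88 (adjusted p = 0.0578, edgeR). Hsd17b10, the partner of Trmt10c, was called (range 0.25, adjusted p = 0.0329) and was highest in litter 3 at 125 CPM, but the call held in only 6 of 15 alternatives, with adjusted p up to 0.361. Ptcd2 and Ptcd3, RNA-binding proteins of mitochondria, were called with ranges of 0.35 and 0.32, in 10 and 13 of 15 alternatives.

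In the list on RNA stability and decay 3 of 5 genes were called, against 32.1% of all genes, in a list too short to set beside that share. Lrpprc, which with Slirp keeps mitochondrial mRNAs stable, had litter means of 335, 269, 240 and 228 CPM (range 0.51, adjusted p = 0.000447, edgeR), and Slirp had 30.0, 23.4, 19.0 and 25.9 CPM (range 0.69, adjusted p = 0.0011). Rexo2, which degrades short RNA pieces, had 25.4, 24.1, 20.1 and 23.5 CPM (range 0.37, adjusted p = 0.0444), a call that held in 6 of 15 alternatives, with adjusted p up to 0.728. All 3 means were highest in litter 1, and those of Slirp and Rexo2 were lowest in litter 3. Lrpprc and Slirp passed the threshold in all 15 alternatives.

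In the transcription list Mrpl12, a ribosomal protein that also binds the polymerase, had litter means of 226, 199, 177 and 220 CPM (range 0.40, adjusted p = 0.00442, edgeR), a call that held in 13 of 15 alternatives, with adjusted p up to 0.0856. Tk2, a kinase that supplies DNA building blocks, was highest in litter 3 at 13.2 CPM and lowest in litter 1 at 7.77 CPM (range 0.72, adjusted p = 0.0164), in 11 of 15 alternatives and with adjusted p up to 0.141. Of 23 genes that load mitochondrial tRNAs with amino acids or alter the loaded amino acid, 4 were called: Qrsl1, Mars2, Lars2 and Aars2, with ranges of 0.60, 0.51, 0.61 and 0.38. Those calls held in 14, 11, 11 and 6 of 15 alternatives, and the adjusted p of Aars2 reached 0.765. Of 15 genes that modify or assemble rRNA only Rbfa was called (range 0.33, in 9 of 15 alternatives), and of 18 that modify tRNAs only Qtrtd1 (range 0.39, in 8 of 15). The shares of these 3 lists, 17.4%, 6.67% and 5.56%, were below the 32.1% of all genes. Tars2, which loads threonine onto mt-Tt, had an adjusted p of 0.9 between litters (edgeR).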

How the data were processed

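RNA was measured in 8 libraries, 1 male and 1 female pup from each of 4 litters. What the authors deposited were unnormalized counts, whole numbers for each gene symbol and library. Per the submitters' processing notes, reads were aligned with STAR 2.7.3a and the build was mm10. The counting tool, annotation, strand setting and handling of reads with several matches are not given in the sources used here. The labels name a stranded total RNA kit and single-end reads of 100 bases, yet give the molecule as poly(A) RNA, and which applied is not given.

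Members and gene lists were chosen with earlier results of these data known. Genes named are all mt- entries, a set of core nuclear factors, up to 4 called genes from each nuclear list and test, and the 5 nuclear copies with the highest mean count. Gene positions and sequences came from GENCODE M21 on GRCm38, the same assembly as mm10, in which all 37 members were found. Windows of 100 bases were searched in annotated transcripts on either strand, since no genome sequence was used.

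Counts were tested in R 4.3.3 with edgeR 4.0.16 (filterByExpr, TMM, quasi-likelihood test, Benjamini-Hochberg adjustment over 13771 genes) and DESeq2 1.42.0 as an alternative. Standard errors are the size of the log2 difference over the square root of F. Sex was tested without litter, and litter with sex in the model, which leaves few degrees of freedom. In tests on simulated data drawn with the dispersions of single genes, both tests made more false calls than the adjusted threshold allows, the litter test more so. With dispersions on the trend, tried afterwards, the litter test stayed within the threshold and the sex test slightly passed it, so adjusted p-values near 0.05 are to be read with caution. Single measures had exact permutation tests. Intervals and limits cover counting error only. The replicate number is the litter in the labels, so numbers pair samples, and deviations of littermates correlated at 0.506, 0.503, 0.696 and 0.367. P-values measure the spread between pups, and for litter that between littermates once sex is in the model. In the fits with infinite prior degrees of freedom they rest on the spread of all genes instead.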

Additional observations from a re-analysis of the deposited data

Results flagged for a closer look

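Among 52 groups of 4 libraries of 1 sex, 5 had a library set apart from the other three by a gap large for the range of the group. Chance gives about 1 in 20 groups, or 2.6 of these 52. Male 2 had 8872 CPM of mt-Nd2, below the 10027 to 10250 CPM of the other males. Female 4 had 12.3 CPM of mt-Atp6, below 17.4 to 18.1 CPM in the other females, in a gene whose windows are nearly all shared with a nuclear copy. Male 4 had 14626 CPM of mt-Nd4 against 11243 to 11700, and 36107 CPM of mt-Cytb against 27515 to 27721 in the other males. The share of all counts on mitochondrial genes was 18.5% in male 4, against 14.2% to 14.7% in the other males. The last 3 are in 1 library and are not independent of each other.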

How the results depend on the processing

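The count of 0 members called by sex held in all 16 alternatives, among them DESeq2 and the fit with the replicate block, in which 0 were called. A replicate block joined to the mitochondrial total as library size, chosen after seeing the data, also gave 0. So did DESeq2, chosen likewise, on the nuclear lists. The sign of the sex difference, never past the threshold, changed in at least 1 alternative for 14 of 19 members. The litter count of 6 of 19 became 11 of 25 with no filter on low counts, a fit of more genes with infinite prior degrees of freedom (23.0% of all genes called), and 3 of 19 without litter 4 (26.6%). Leaving out 1 library gave 4 to 11 of 19, the highest without female 4 (28.4%). By single member, 24 litter values lost the threshold, 22 gained it and 220 kept their side. The litter share of variance in the mitochondrial share of counts, 71.0%, was 75.4% without litter 3 and 74.0% without litter 4, and that in the rRNA ratio, 99.7%, was 99.6% and 99.0%. Other measures moved more. Without litter 4 the values were 16.1% for the rRNA share and 34.6% for the minus-strand share of tRNA counts. They were 6.8% for the ratio of mt-Nd6 to the other mRNAs and 8.17% for the minus-strand share. For the tRNA share, 84.7%, the value was 68.8% without litter 3 and 89.9% without litter 4. With 3 litters the smallest p is 0.167, so none of these can pass. The nuclear count of 15 between litters became 5 without litter 3, where 13.7% of all genes were called, and the cause was not tested. Depth limits the tRNAs: values of mt-Ta, mt-Te and mt-Ty rest on 7 counts or fewer per library.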
